A study of Rattus norvegicus with 8 samples.

Results

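The nuclear genes for the subunits of respiratory complexes II to V were described in whole hearts of aged female Norway Brown rats, 18 to 22 months old, by expression array. Members were the probe sets annotated to exactly 1 gene symbol among Sdha, Sdhb, Sdhc, Sdhd, Cyc1 and Cycs, or to a symbol beginning with Uqcr, Cox4i, Cox5, Cox6, Cox7, Cox8 or Atp5. The rule found 51 probe sets for 45 genes, of 14217 genes with a probe set of 1 symbol. A gene was represented by its brightest probe set, and 40 of the 45 genes had a single one. Complex II had 4 genes, complex III 8, complex IV 17 and complex V 16.

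All rats underwent surgery and fell into 4 groups. Sham rats had the body cavity opened and closed with no tissue removed. Ovariectomy rats lost their ovaries and received no hormone. Early estradiol rats were ovariectomized and given a subcutaneous slow-release estradiol pellet of 0.5 mg, made to last 90 days, at the same surgery. Late estradiol rats were ovariectomized and received the same pellet 9 weeks afterwards. Each group had 2 arrays, and the RNA on an array was an equal mix from 3 hearts, so that single animals were averaged and p-values measure the spread between pools, which may be technical. Since whole hearts were used, fewer cells of a type and less RNA per cell cannot be told apart.

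The respiratory chain sits in the inner mitochondrial membrane and carries electrons from nutrients to oxygen. Complex II, succinate dehydrogenase, feeds electrons from the citric acid cycle, complex III passes them to cytochrome c, and complex IV, cytochrome c oxidase, hands them to oxygen. Complex V, the ATP synthase, uses the proton gradient to make ATP, and the beating heart depends on it. In complex IV, several small subunits exist as a ubiquitous form and a form of heart and skeletal muscle. The catalytic core of complex IV and parts of complexes III and V are encoded in mitochondrial DNA and are not among these genes.

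As examples, 4 promoters are printed, from muscle and ubiquitous forms and from the complex II genes described below. The muscle and ubiquitous forms were not compared as classes. The promoters come from RefSeq, build GRCr8, and run from 250 bases before to 50 bases after the gene start, 5′ to 3′ on the gene's strand. Of the 44 genes other than the pseudogene Cox6c-ps1, 38 had a sequence in the table. Capitals mark, on either strand, CCGGAAG (the core bound by NRF-2, also called GABP), AAGATGGC (YY1), TCAAGGTCA (estrogen-related receptors, ERR) and TAAAAATAG (MEF2, a muscle factor). Cox8a is the ubiquitous and Cox8b the muscle form of subunit 8, Cox6a2 is the muscle form of subunit 6A, and Sdhd is a membrane anchor of complex II. They lie on the minus strand at chr1:213833574-213833873 (Cox8a), chr1:205408224-205408523 (Cox8b), chr1:192219667-192219966 (Cox6a2) and chr8:59850592-59850891 (Sdhd).
Cox8a: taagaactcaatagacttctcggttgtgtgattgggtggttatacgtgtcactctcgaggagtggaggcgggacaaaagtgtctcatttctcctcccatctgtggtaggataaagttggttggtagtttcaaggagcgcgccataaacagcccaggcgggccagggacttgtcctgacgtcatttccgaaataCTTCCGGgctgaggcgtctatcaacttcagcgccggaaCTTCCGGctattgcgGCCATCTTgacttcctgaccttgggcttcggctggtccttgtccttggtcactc
Cox8b: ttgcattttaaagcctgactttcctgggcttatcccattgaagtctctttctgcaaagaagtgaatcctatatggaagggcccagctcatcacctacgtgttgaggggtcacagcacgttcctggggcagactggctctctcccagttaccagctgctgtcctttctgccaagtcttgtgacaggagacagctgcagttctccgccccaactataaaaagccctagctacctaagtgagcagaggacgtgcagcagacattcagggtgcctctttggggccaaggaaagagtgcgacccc
Cox6a2: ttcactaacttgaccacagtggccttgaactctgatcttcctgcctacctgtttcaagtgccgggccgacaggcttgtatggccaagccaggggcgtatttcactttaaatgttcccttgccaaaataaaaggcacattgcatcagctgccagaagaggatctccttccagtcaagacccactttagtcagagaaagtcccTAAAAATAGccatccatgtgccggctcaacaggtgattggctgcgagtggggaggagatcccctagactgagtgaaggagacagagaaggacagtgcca
Sdhd: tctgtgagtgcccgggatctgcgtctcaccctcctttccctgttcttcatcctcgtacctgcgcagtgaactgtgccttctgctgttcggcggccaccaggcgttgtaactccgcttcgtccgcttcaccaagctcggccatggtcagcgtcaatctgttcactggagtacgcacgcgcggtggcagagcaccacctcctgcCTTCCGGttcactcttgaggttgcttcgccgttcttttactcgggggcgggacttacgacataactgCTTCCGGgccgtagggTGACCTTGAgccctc

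The ubiquitous Cox8a promoter held the NRF-2 core at 2 places and the YY1 motif at 1, while the Cox8b window held none of the motifs searched and the Cox6a2 window held only the MEF2 motif. The Sdhd window held the NRF-2 core at 2 places and the ERR motif at 1. Among the 38 promoters, 13 (34.2%) held the NRF-2 core, against 8.75% of 33469 rat promoters in the table. The YY1 motif was in 7 of 38 (18.4%, against 3.17%), and the NRF-1 motif GCGCATGCG in 4 of 38 (10.5%, against 1.52%). The ERR motif was in 2, Atp5mc3 and Sdhd (5.26%, against 0.433%), and the MEF2 motif in Cox6a2 alone among the 38 (0.514% of all). A full estrogen response element, written as GGTCA and TGACC with 3 bases between them, was in none of the 38, and in 9 of all promoters (0.0269%). The 33469 promoters were not limited to genes measured or bright on the array, and the shares were not compared by a test. A match describes letters in these windows and does not show binding.

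The arrays were not on a common scale as deposited. Replicate 1 arrays had 2% trimmed mean signals of 28.1 to 69.8, and replicate 2 arrays of 103.8 to 137.0. The dimmest was late estradiol replicate 1. Its Gapdh 3′ to 5′ signal ratio, which reflects RNA quality, was 2.70, while the 7 other arrays had 1.26 to 1.65. It also held the highest or lowest value of 20 of the 43 tested subunit genes, against 5 to 13 for each other array. All levels below are log2 signals after quantile normalization, and each difference is a log2 difference of group means of 2 arrays. Cardiomyocyte markers, of which 9 of 10 were measured, had a summed log2 level (the log2 of their summed signals) of 15.82 to 15.89 over the 8 arrays. As deposited it was 15.25 to 16.43, and quantile normalization sets bright values to near-equal levels. With no other tissue here, these values do not test the heart label.

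The subunit genes were among the brightest of the array, and their group means differed about as much as those of other bright probe sets. Of the 45 genes, 36 lay above the 99th percentile of brightness over 31042 probe sets, which describes these probe sets and not the amounts of different mRNAs. The summed log2 level of the 45 genes was 16.36 to 18.04 over the 8 arrays as deposited, and 17.30 to 17.39 after quantile normalization, which sets bright values to near-equal levels. The range between the highest and lowest of the 4 group means had a median of 0.18 over the 43 tested genes. It was 0.54 over all 18625 probe sets tested and 0.18 over the 275 other probe sets in the brightest 1%. With no normalization these medians were 0.39, 0.81 and 0.44, and with cyclic loess 0.35, 0.52 and 0.30. After quantile normalization the range was under 0.5 for 39 of 43 and under 0.2 for 27, and ran from 0.04 to 1.18. The genes too dim to be tested were Cox6b2 and Cox7b2, forms known from testis, and the rule also took in Cox6c-ps1, a pseudogene that passed it.

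**Figure D1:**
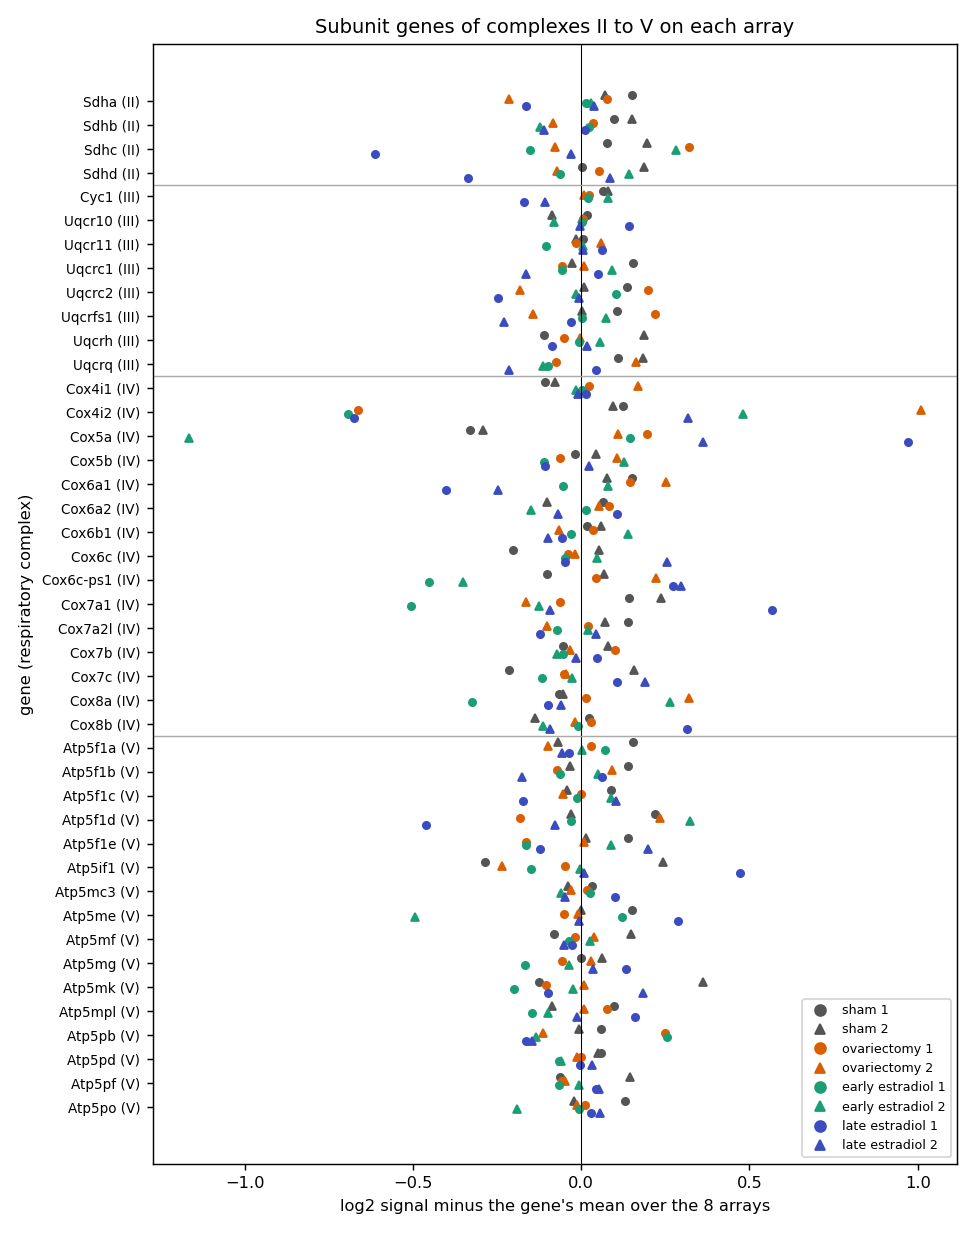
Log2 signal of each of the 43 tested subunit genes on each array, as the difference from the gene's mean over the 8 arrays. Circles are replicate 1, triangles replicate 2, and colours the 4 groups. Most genes stay within a narrow band around 0, while Cox4i2 and Cox5a of complex IV spread most.

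The spread between the 2 arrays of a group was small for these genes too. The residual SD on 4 degrees of freedom had a median of 0.115 over the 43 genes, against 0.395 over all probe sets tested. Brightness moves with it, since the brightest 10% of all probe sets had a median of 0.209 and the brightest 1%, 311 probe sets, 0.139. By complex the median was 0.156 for complex II, 0.115 for III, 0.116 for IV and 0.105 for V. Atp5pd, a peripheral stalk subunit of the ATP synthase, had the lowest residual SD of the 43, at 0.0144, and Cox4i2, the lung and hypoxia form of complex IV subunit 4, the highest, at 0.803.

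**Figure D2:**
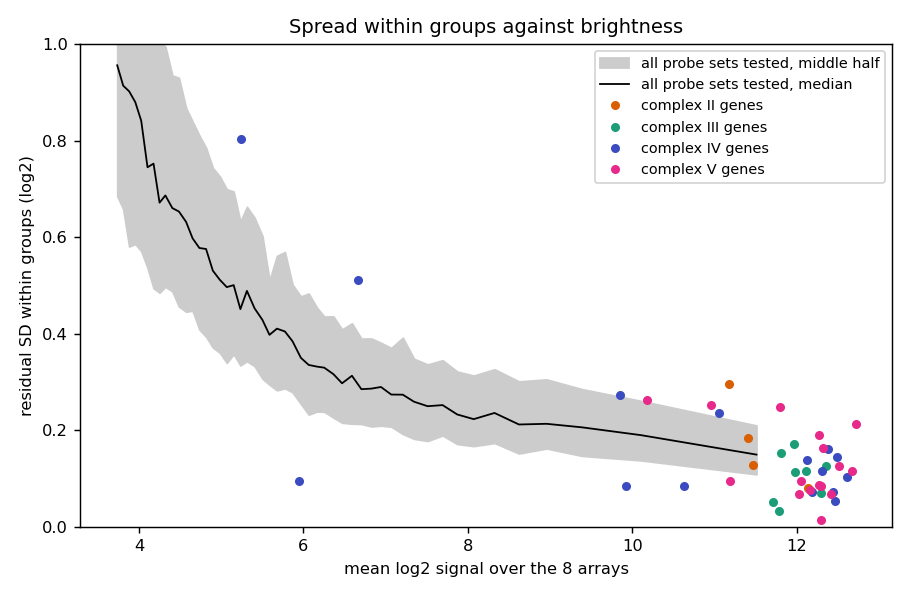
Residual SD within groups (log2) against mean log2 signal. The line and grey band give the median and the interquartile range of all probe sets tested, and the points are the subunit genes coloured by complex. Most subunit genes lie at the bright end, where the median spread of all probe sets is lowest, and Cox4i2 and Cox5a lie among dimmer probe sets with wider spread.

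Each pair of groups was compared with limma, an empirical Bayes linear model fitted over all probe sets, with Benjamini-Hochberg adjustment. None of the 43 subunit genes passed an adjusted p of 0.05 in any of the 6 comparisons or in the F test over the 4 groups. The same test called 0% of all probe sets tested in each of them. The comparisons share groups, so their values stand side by side and are not independent of each other.

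Ovariectomy against sham addresses the loss of ovarian hormones. The median difference over the 43 genes was -0.05, and 28 of 43 were lower after ovariectomy (53.3% of all probe sets tested were). No subunit gene reached an unadjusted p of 0.05, which 1.47% of probe sets did. Both ovariectomy arrays lay above both sham arrays for 3 genes (11% of all) and below them for 7 (14.1% of all). The members of smallest p were, among those higher, Cox4i1, the ubiquitous subunit 4 of complex IV, and Cox8a, and among those lower Cox7a1, the muscle form of subunit 7A, and Sdha, the flavoprotein of complex II. Their differences were 0.19 ± 0.125 (SE), 0.23 ± 0.199, -0.30 ± 0.227 and -0.18 ± 0.152, and none passed. Without ovariectomy replicate 2, Cox4i1 was 0.12, Cox8a 0.07 and Sdha -0.036.

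Early estradiol against ovariectomy addresses hormone given at once. The median over the 43 genes was -0.02, with 28 lower (47.1% of all). None reached an unadjusted p of 0.05 (1.71% of all). Both early estradiol arrays lay above both ovariectomy arrays for 0 genes (14.7% of all) and below for 8 (12.3% of all). Sdha at 0.09 ± 0.152 and Atp5f1d, the delta subunit of the F1 head, at 0.12 ± 0.208 were the upper pair by p, and Cox6c-ps1 at -0.54 ± 0.300 and Cox5a at -0.66 ± 0.406 the lower pair. Without early estradiol replicate 2 the Cox5a difference was -0.0073. Sdha turned to -0.05 without ovariectomy replicate 2, and Atp5f1d to -0.08 without replicate 1 of that group.

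Late estradiol against ovariectomy addresses hormone given after a delay. The median was -0.01 with 23 of 43 lower (48.8% of all). A single gene, Cox6a1, reached an unadjusted p of 0.05, a share of the 43 below the 4.36% of all probe sets that did. Both late estradiol arrays lay above both ovariectomy arrays for 8 genes (15.7% of all) and below for 6 (13.4% of all). After Cox6a1, the members of smallest p were Sdhc, a membrane anchor of complex II, at -0.44 ± 0.229, Atp5if1, the inhibitor protein of the ATP synthase, at 0.38 ± 0.219, and Cox7a1 at 0.35 ± 0.227. Without late estradiol replicate 1 these were -0.14, 0.15 and 0.02.

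Late against early estradiol addresses the timing of the pellet with the agent and dose alike. Since the pellets started 9 weeks apart, length of estradiol exposure or time since ovariectomy differed as well. The time of collection is not given here. The median was 0.01 with 21 of 43 lower (50.7% of all). Cox5a, Cox6a1, Cox6c-ps1 and Cox7a1 reached an unadjusted p of 0.05, 4 of 43 where 3.87% of all probe sets did. Both late arrays lay above both early arrays for 11 genes (15.5% of all) and below for 7 (16.3% of all).

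Early estradiol against sham had a median of -0.05, with 36 of 43 genes lower (50.1% of all). That direction was small and depended on the scaling: 40 of 43 were lower with no normalization, 17 with arrays centred on their median and 21 with cyclic loess. None reached an unadjusted p of 0.05 (0.773% of all), and the arrays did not overlap for 1 gene above (12.1% of all) and 9 below (12.7% of all). Uqcrq, a small subunit of complex III, differed by -0.25 ± 0.145 and Cox7a1 by -0.50 ± 0.227 (-0.31 without early estradiol replicate 1), while Cox4i1 differed by 0.09 ± 0.125 and Cox6c, a small subunit of complex IV, by 0.07 ± 0.151.

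Late estradiol against sham had a median of -0.05 with 26 of 43 lower (51.9% of all). Cox5a and Cox6a1 reached an unadjusted p of 0.05 (3.37% of all). The arrays did not overlap for 3 genes above (14.5% of all) and 13 below (16.1% of all). By the F test over the 4 groups, Cox6a1 alone of the 43 reached an unadjusted p of 0.05 (1.86% of all), with no adjusted call.

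The size of difference that the arrays left room for was small under quantile normalization. The 95% interval of the difference lay wholly within 1.5-fold for 37 of 43 genes in ovariectomy against sham (8.01% of all), 37 in early estradiol against ovariectomy (7.72% of all) and 32 in late estradiol against ovariectomy (6.74% of all). It did so for 33 in late against early estradiol (6.61% of all), 37 in early estradiol against sham (8.22% of all) and 35 in late estradiol against sham (6.65% of all). Of the 311 brightest probe sets, 227 to 274 did so over the 6 comparisons. These counts rest on the scaling and on the prior variance. They were 7 to 22 with cyclic loess, 3 to 9 without an intensity trend in the prior variance, and 0 with no normalization or with arrays centred on their median. Late estradiol against sham also dropped to 19 without sham replicate 2 and to 23 without sham replicate 1.

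**Figure D3:**
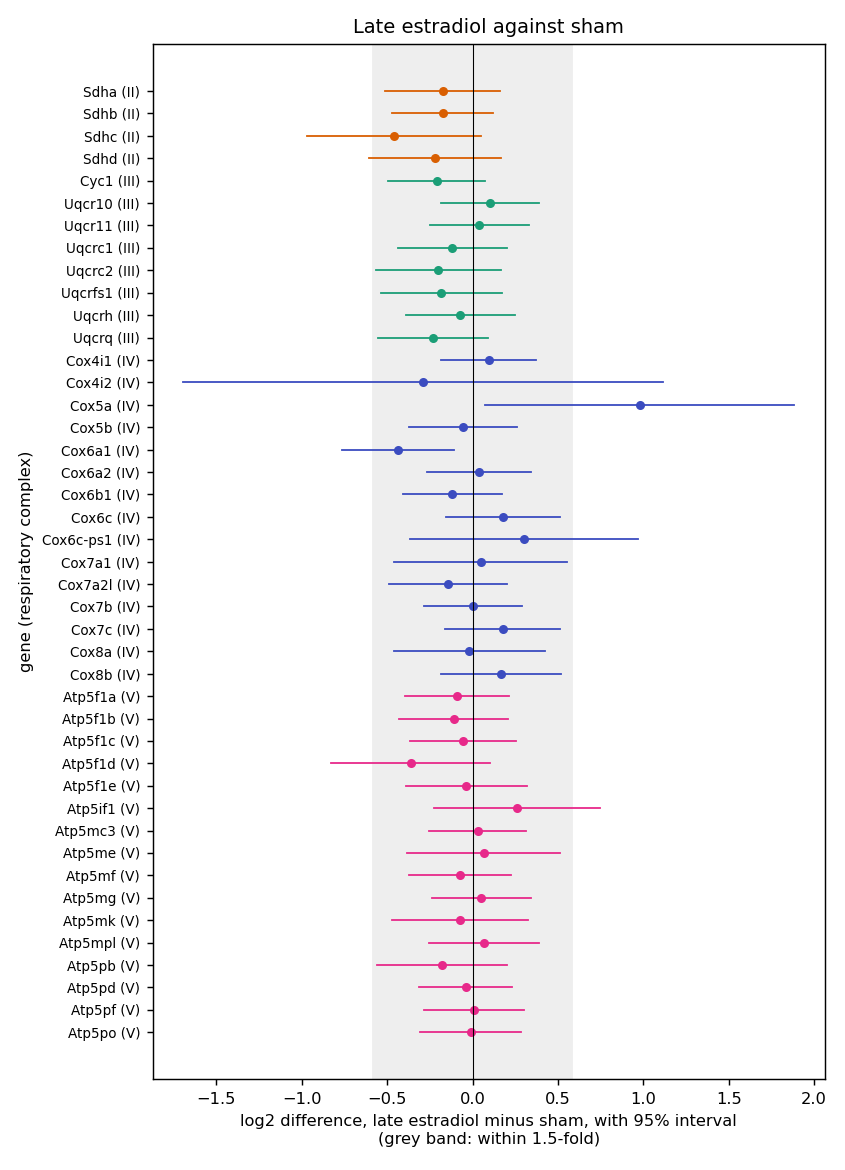
Log2 difference of late estradiol minus sham for each tested subunit gene after quantile normalization, with its unadjusted 95% interval from limma. The grey band marks differences within 1.5-fold. Of 43 intervals 35 lie inside the band, Cox6a1 lies below 0 and Cox5a above it, and no gene passed adjustment.

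The direction of the family as a whole depended on how the arrays were scaled. For late estradiol against sham the median over the 43 genes was -0.05 after quantile normalization, -0.35 with no normalization, 0.04 with arrays centred on their median and 0.26 with cyclic loess. The medians of all probe sets tested under these scalings were -0.02, -0.62, -0.23 and 0.00. No direction is therefore given for the family in any comparison.

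Adding a constant to a whole array moves all 4 complexes alike, but the arrays differed by more than a constant. As deposited, the highest signal was 8015 on sham replicate 1 and 8111 on late estradiol replicate 1, while the median signals were 26.5 and 13.3. Complex II probe sets were also dimmer, with array medians of 11.19 to 11.57 after quantile normalization, against 12.14 to 12.29 for complex V. The part of brightness in differences among the complexes was not tested. In late estradiol against sham, complex II had a median of -0.20, complex III -0.15, complex V -0.04 and complex IV 0.04. With the arrays centred on the median of the 43 genes, a scaling chosen after the data were seen, these were -0.38, -0.05, 0.10 and 0.06. With no normalization or with arrays centred on their median the order is the same as in that scaling by construction. With cyclic loess the medians were -0.12, 0.17, 0.30 and 0.29 for complexes II, III, V and IV. Complex II was the lowest of the 4 with quantile normalization, with cyclic loess and under scalings by a constant. The order of complexes IV and V was not the same in all of these scalings. Other mitochondrial sets, described below, were lower too with arrays centred on the median of the 43 genes. The citric acid cycle had -0.44, the mitochondrial ribosome -0.43 and assembly factors -0.34. Carriers and cristae had -0.28 and complex I -0.20, beside -0.38 for complex II. The median of all probe sets under that scaling is not given here. After quantile normalization these sets had -0.19, -0.05, -0.02, -0.12 and -0.05 in that order, beside -0.20 for complex II. With cyclic loess they had -0.15, -0.08, -0.02, -0.003 and 0.08, beside -0.12.

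**Figure D4:**
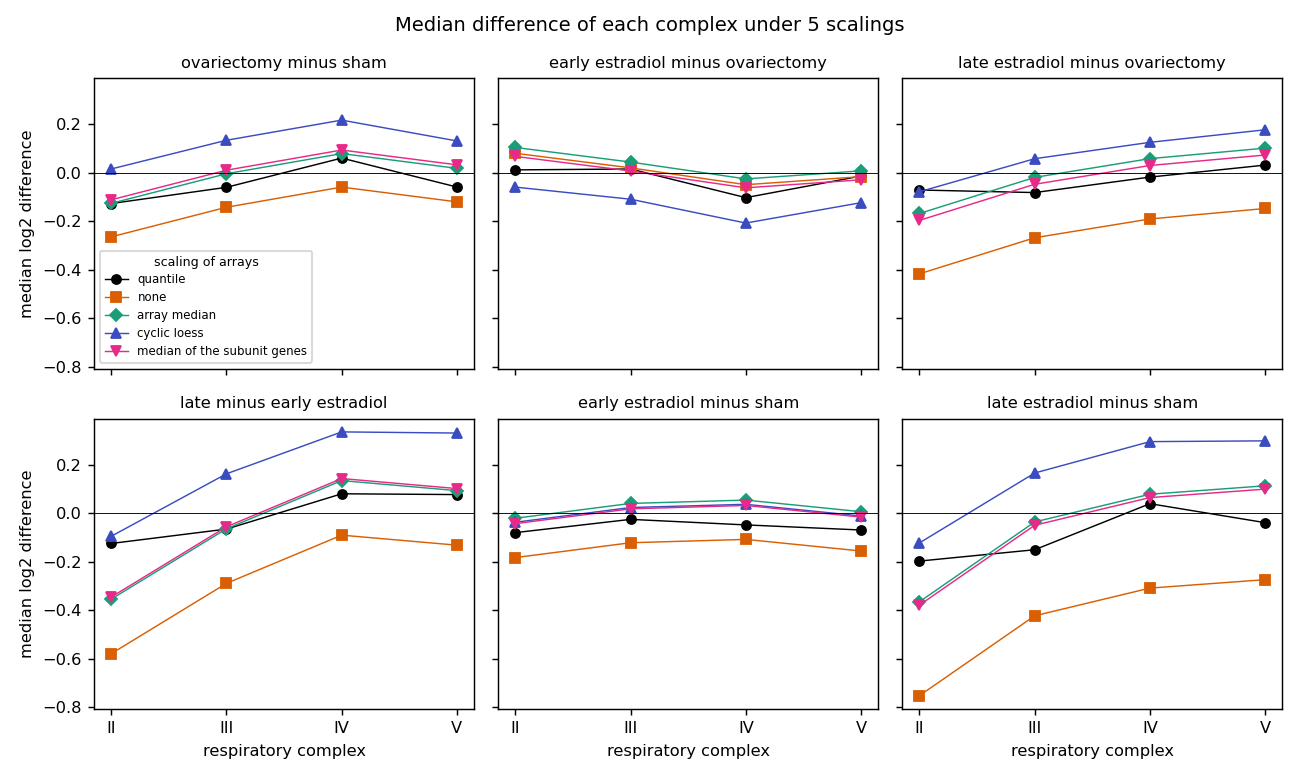
Median log2 difference of the genes of each complex (4 in complex II, 8 in III, 15 in IV including the pseudogene, 16 in V) in the 6 comparisons, under 5 scalings of the arrays. In late estradiol against sham and against early estradiol, complex II lies below 0 under all 5, while complexes III, IV and V lie on both sides of 0 depending on the scaling.

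Complex II holds the succinate dehydrogenase flavoprotein Sdha, the iron-sulfur protein Sdhb and the membrane anchors Sdhc and Sdhd. All 4 genes were lower in late estradiol than in sham, with both arrays below both sham arrays for 3 of them, and none passed the test. Over all probe sets tested 51.9% were lower and 16.1% lower with no overlap. Sdhc was 11.25 and 11.37 in sham, 11.49 and 11.09 after ovariectomy, 11.02 and 11.45 with early estradiol, and 10.56 and 11.14 with late estradiol. The lowest value was that of late estradiol replicate 1, and the late arrays lay below both sham arrays. The late minus sham difference of Sdhc was -0.46 ± 0.229 (limma, adjusted p = 0.997), with a 95% interval of -0.97 to 0.05, and it was -0.16 without late estradiol replicate 1.

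Sdhd, the other anchor, was 11.41 and 11.59 in sham, 11.46 and 11.33 after ovariectomy, 11.34 and 11.55 with early estradiol, and 11.07 and 11.49 with late estradiol. Its late arrays overlapped the sham arrays, and its late minus sham difference was -0.22 ± 0.174, which was -0.011 without late estradiol replicate 1. Sdha was 11.63 and 11.54 in sham, 11.55 and 11.26 after ovariectomy, 11.49 and 11.50 with early estradiol, and 11.31 and 11.51 with late estradiol. The highest Sdha values were those of both sham arrays and ovariectomy replicate 1, and the gene differed by -0.17 ± 0.152 between late estradiol and sham, or by -0.07 without late estradiol replicate 1. Sdhb was 12.24 and 12.29 in sham, 12.18 and 12.06 after ovariectomy, 12.17 and 12.02 with early estradiol, and 12.15 and 12.03 with late estradiol. Both sham arrays of Sdhb lay above all 6 other arrays, and its differences from sham were -0.15 ± 0.133, -0.17 ± 0.133 and -0.17 ± 0.133 in that order. The median of the 4 genes in late estradiol against sham was -0.33 within replicate 1 and -0.16 within replicate 2, and ran from -0.75 to -0.11 over the alternatives, with -0.11 without late estradiol replicate 1. With cyclic loess 3 of the 4 genes were lower, and Sdhb was higher by 0.17.

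Markers of other cells also differed between late estradiol and sham, with none called. Fibroblast markers were lower for 7 of 8, with a median of -0.33, and atrial cardiomyocyte markers higher for 3 of 4, with a median of 0.87. The summed log2 level of the atrial markers was 9.28 and 11.30 in sham and 11.98 and 10.94 with late estradiol, so that the late arrays did not lie apart from sham. The part of these cells in the complex II values was not tested.

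Complex III has a core of Uqcrc1 and Uqcrc2, the cytochrome c1 gene Cyc1 and the Rieske iron-sulfur protein Uqcrfs1, with small subunits around it. The 4 core genes were each lower in late estradiol than in sham (51.9% of all were), with differences of -0.21 to -0.12, and none passed. Their median was -0.19 for late estradiol against sham, -0.15 against ovariectomy and -0.17 against early estradiol. The small subunits Uqcr10, Uqcr11, Uqcrh and Uqcrq had medians of -0.02, 0.00 and 0.05. In late estradiol against sham the small subunits ran from -0.23 for Uqcrq, lower than each core gene, to 0.10. This division of the complex was drawn after the data were seen, and with cyclic loess the core median for late estradiol against sham was 0.02, with 1 of 4 lower.

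Cyc1 had close replicates, at 11.85 and 11.87 in sham, 11.81 and 11.80 after ovariectomy, 11.81 and 11.87 with early estradiol, and 11.62 and 11.68 with late estradiol. Both late arrays lay below all 6 others. The late minus sham difference of Cyc1 was -0.21 ± 0.127 (limma, adjusted p = 0.997), with a 95% interval of -0.49 to 0.07. Uqcrfs1 differed by -0.18 ± 0.158, Uqcrc2 by -0.20 ± 0.165 and Uqcrc1 by -0.12 ± 0.143 in the same comparison. Of the core genes only Uqcrc1 had overlapping arrays, and 16.1% of all probe sets tested were lower with no overlap. Leaving out late estradiol replicate 1 gave -0.07 for Uqcrc2, and leaving out replicate 2 gave -0.08 for Uqcrfs1 and -0.014 for Uqcrc1. Uqcrq was 12.47 and 12.54 in sham, 12.28 and 12.52 after ovariectomy, 12.26 and 12.25 with early estradiol, and 12.40 and 12.14 with late estradiol, so that both early arrays and both late arrays lay below sham.

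Complex IV held the gene with the smallest p of the family, Cox6a1, the ubiquitous form of subunit 6A. Cox6a1 was 10.78 and 10.70 in sham, 10.77 and 10.88 after ovariectomy, 10.57 and 10.71 with early estradiol, and 10.23 and 10.38 with late estradiol. Both late arrays lay below all 6 others. Late estradiol was lower than ovariectomy by a log2 difference of -0.52 ± 0.147, a fold of 1.44, with -0.55 within replicate 1 and -0.50 within replicate 2. Its unadjusted 95% interval was -0.85 to -0.19 and its adjusted p from limma was 0.943, which ran from 0.221 to 1 over the alternatives. The differences were -0.44 ± 0.147 against sham (limma, adjusted p = 0.997) and -0.34 ± 0.147 against early estradiol (limma, adjusted p = 0.987). All 3 kept their sign under the 17 alternatives, from -0.93 to -0.45, from -1.13 to -0.36 and from -0.89 to -0.26.

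Ubiquitous forms such as Cox6a1 are also made outside muscle cells, and markers of other cell types also differed in value in the same comparison. No marker passed the test, with lowest adjusted p values from limma of 0.067 for fibroblast and 0.943 for macrophage and endothelial markers. All 8 fibroblast markers were lower in late estradiol than after ovariectomy, with a median of -0.85 (48.8% of all were lower). With cyclic loess, and under the scalings by a constant, 8 of 8 were. Their summed log2 level was 12.42 and 12.40 in sham, 12.67 and 12.79 after ovariectomy, 12.70 and 12.47 with early estradiol, and 11.82 and 12.29 with late estradiol. Macrophage markers were lower for 8 of 10, with summed levels of 10.58 and 10.64 in sham, 10.56 and 12.52 after ovariectomy, 11.54 and 11.21 with early estradiol, and 10.30 and 10.93 with late estradiol. No marker of either list had a signal of 0. Endothelial markers were higher for 6 of 7, with a median of 0.22, and the cardiomyocyte median was -0.01. The part of these cells in the Cox6a1 result was not tested.

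The muscle form of the same subunit, Cox6a2, had overlapping arrays in late estradiol and after ovariectomy. It was 12.68 and 12.52 in sham, 12.70 and 12.67 after ovariectomy, 12.63 and 12.47 with early estradiol, and 12.73 and 12.55 with late estradiol, and its late minus ovariectomy difference was -0.05 ± 0.136 with a 95% interval of -0.35 to 0.25. Cox8a, the ubiquitous form of subunit 8, was 10.99 and 11.00 in sham, 11.07 and 11.38 after ovariectomy, 10.73 and 11.32 with early estradiol, and 10.96 and 11.00 with late estradiol. Both ovariectomy arrays of Cox8a lay above sham and late estradiol, while the early arrays spread widely. The muscle form Cox8b was 12.40 and 12.24 in sham, 12.41 and 12.36 after ovariectomy, 12.37 and 12.26 with early estradiol, and 12.69 and 12.28 with late estradiol. In late estradiol against ovariectomy Cox8a differed by -0.25 ± 0.199 and Cox8b by 0.11 ± 0.158, and neither passed. The Cox8a difference was -0.09 without ovariectomy replicate 2.

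**Figure D5:**
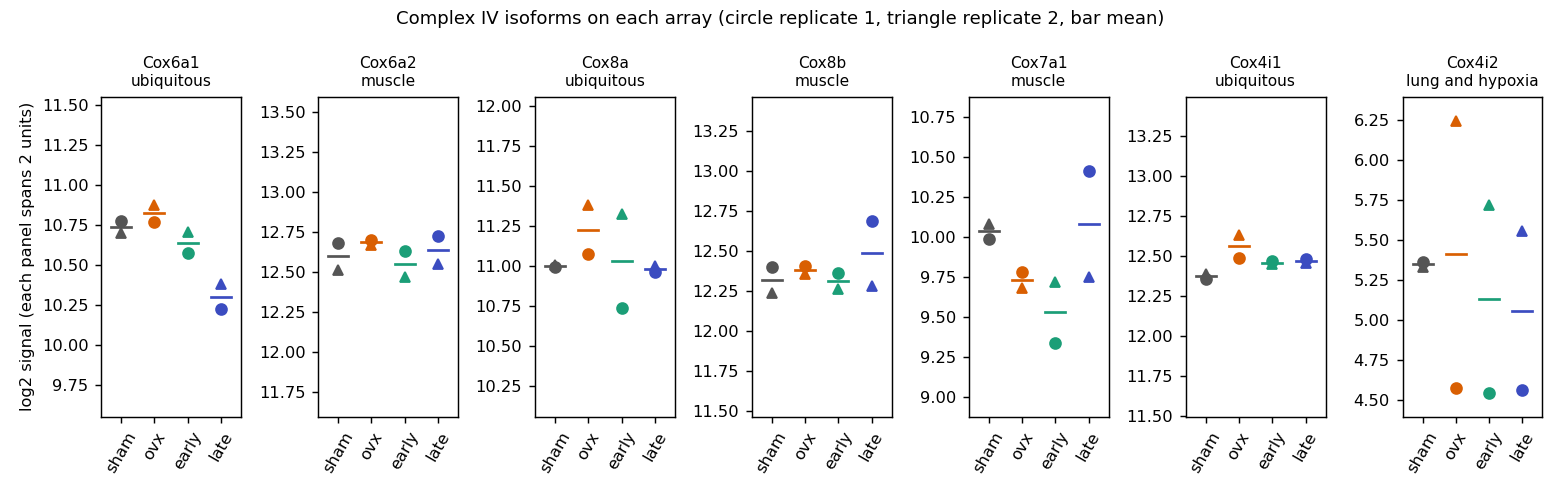
Log2 signal of ubiquitous, muscle and other isoforms of complex IV on each array, in sham, ovariectomy (ovx), early estradiol and late estradiol. Circles are replicate 1, triangles replicate 2 and bars group means, each panel spans 2 log2 units, and levels of different genes are not comparable. Both late estradiol arrays of Cox6a1 lie below its 6 other arrays, while the Cox6a2 arrays overlap between late estradiol and ovariectomy.

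Cox7a1, the muscle form of subunit 7A, had the widest gap between late estradiol replicates among the isoforms of muscle. It was 9.99 and 10.08 in sham, 9.79 and 9.68 after ovariectomy, 9.34 and 9.72 with early estradiol, and 10.42 and 9.76 with late estradiol. Both ovariectomy and both early arrays lay below sham. The late minus early difference was 0.55 ± 0.227 (limma, adjusted p = 0.987), but it was 0.22 without late estradiol replicate 1, 1.07 within replicate 1, 0.03 within replicate 2 and -0.01 with no normalization. The probe set of its ubiquitous counterpart Cox7a2 carries 2 symbols and was left out by the rule. Cox7a2l, a factor of complex III and IV supercomplexes, was 9.80 to 10.06 over the 8 arrays.

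Subunit 4 of complex IV, the first nuclear subunit to join the mitochondrial core, has a ubiquitous form Cox4i1 and the form Cox4i2. Cox4i1 was 12.36 and 12.39 in sham, 12.49 and 12.63 after ovariectomy, 12.47 and 12.45 with early estradiol, and 12.48 and 12.46 with late estradiol. Both sham arrays of Cox4i1 were the lowest of the 8. Cox4i2 was 5.36 and 5.33 in sham, 4.57 and 6.24 after ovariectomy, 4.54 and 5.72 with early estradiol, and 4.56 and 5.55 with late estradiol. Cox4i2 was lower in replicate 1 than in replicate 2 in each of the 3 ovariectomized groups, by more than any difference between group means.

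Cox5a, a structural subunit of complex IV, had the widest range of group means among the 43 genes, on a dim probe set. It was 6.33 and 6.37 in sham, 6.86 and 6.77 after ovariectomy, 6.81 and 5.50 with early estradiol, and 7.64 and 7.03 with late estradiol. Both late arrays lay above all others, and early estradiol replicate 2 lay far below its partner. The late minus early difference was 1.18 ± 0.406 (limma, adjusted p = 0.987), and 0.52 without early estradiol replicate 2. Late minus sham was 0.98 ± 0.406 (limma, adjusted p = 0.997). A second Cox5a probe set carries 2 symbols and was left out by the rule, and Cox5b, its neighbour in the complex, was 12.20 to 12.43 over the 8 arrays, with group means of 12.32, 12.33, 12.31 and 12.27.

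The pseudogene Cox6c-ps1 shares sequence with Cox6c, so its probe set may also detect other transcripts. It was 5.85 and 6.02 in sham, 5.99 and 6.17 after ovariectomy, 5.50 and 5.60 with early estradiol, and 6.22 and 6.25 with late estradiol. Both early arrays lay below all others, and late minus early was 0.69 ± 0.300 (limma, adjusted p = 0.987). Cox6c itself was 12.29 to 12.75 over the arrays and differed by 0.11 ± 0.151 in that comparison. Among the other small subunits, Cox7c was higher in late than in early estradiol by 0.22 ± 0.151 with no overlap of arrays, while Cox6b1 differed by -0.13 ± 0.130 and Cox7b by 0.08 ± 0.128.

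Complex V is built of the F1 head that makes ATP, a peripheral stalk and a membrane part that lets protons through. The catalytic beta subunit Atp5f1b was 12.34 to 12.66, the alpha subunit Atp5f1a 11.96 to 12.21 and the gamma shaft Atp5f1c 12.50 to 12.78 over the 8 arrays. Over the 6 comparisons the differences of these 3 genes ran from -0.11 to 0.07. Atp5f1d, the delta subunit, was 11.18 and 10.93 in sham, 10.78 and 11.19 after ovariectomy, 10.93 and 11.28 with early estradiol, and 10.50 and 10.88 with late estradiol. Both late arrays of Atp5f1d lay below both sham and both early arrays, and late minus early was -0.42 ± 0.208 (limma, adjusted p = 0.987). Without late estradiol replicate 1 it was -0.22.

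In the membrane part, Atp5mc3, a gene for the proton-carrying c ring, had the narrowest range of group means, 12.40 to 12.44. The 6 membrane genes had a median of 0.17 for late against early estradiol, with 5 of 6 higher, and the 5 genes of the F1 head one of -0.07, with 4 of 5 lower, in a division of the complex drawn after the data were seen. With cyclic loess the membrane median was 0.35 and the F1 median 0.17, and with no normalization -0.07 and -0.25, so that neither direction held under all scalings. The peripheral stalk genes Atp5pb, Atp5pd, Atp5pf and Atp5po had a median of 0.08 in that comparison. No gene of these groups passed the test.

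Atp5if1 makes the protein that stops the ATP synthase from running backwards when oxygen is short. It was 9.89 and 10.42 in sham, 10.13 and 9.94 after ovariectomy, 10.03 and 10.17 with early estradiol, and 10.65 and 10.18 with late estradiol. Both late arrays lay above both ovariectomy arrays, with a difference of 0.38 ± 0.219, which was 0.15 without late estradiol replicate 1 and 0.61 without replicate 2. Over all alternatives it ran from 0.03 to 0.66, the highest with the mean of its 3 probe sets. Late minus sham was 0.26 ± 0.219 and turned negative in 4 alternatives, to -0.44 with no normalization.

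Assembly factors, which build the complexes and are not part of them, showed the same lack of calls. Of 42 listed, 35 were tested and 0 passed in any comparison. In early estradiol against sham 30 of 35 were lower with a median of -0.18 (50.1% of all were). Under the other 4 scalings 28 to 35 were, with 30 for cyclic loess. The remaining scalings differ from each other by a constant per array, so they are not separate checks. The shares of all probe sets lower under them are not given here. In late against early estradiol 26 of 35 were higher with a median of 0.16, a direction that turned to -0.19 with arrays centred on their median, to -0.18 with arrays centred on the subunit genes and to -0.42 with no normalization. Cox17, the copper chaperone of complex IV, was 10.32 and 10.51 in sham, 10.43 and 10.44 after ovariectomy, 10.41 and 10.47 with early estradiol, and 11.04 and 10.76 with late estradiol. Both late arrays of Cox17 lay above all 6 others, with differences of 0.46 against ovariectomy, 0.46 against early estradiol and 0.48 against sham (adjusted p from limma = 0.943, 0.987 and 0.997). Its highest value was that of late estradiol replicate 1, the array with the Gapdh ratio of 2.70. Cox17 was 1 of the 35 tested and falls outside the naming rules given below.

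Other mitochondrial gene sets stood beside the family. For late estradiol against sham, the 36 complex I genes had a median of -0.05, the 73 mitochondrial ribosome genes -0.05 and the 14 genes of carriers and cristae -0.12, beside the -0.05 of complexes II to V. All 12 measured genes of the citric acid cycle, the pathway that complex II belongs to, were lower, with a median of -0.19, and 0 passed. Over all probe sets tested 51.9% were lower. Under the other 4 scalings 9 to 12 of the citric acid cycle genes were lower, with 9 for cyclic loess. For early estradiol against sham, 31 of 36 complex I genes and 63 of 73 mitochondrial ribosome genes were lower, with medians of -0.10 and -0.15. Over all probe sets tested 50.1% were lower. Under the other 4 scalings the complex I and ribosome counts ran from 23 to 34 and from 62 to 71, with 25 and 64 for cyclic loess. The scalings by a constant are not separate checks here either. For late estradiol against sham the complex I median ran from -0.57 to 0.08 over the 5 scalings, the ribosome median from -0.80 to -0.05 and the carrier and cristae median from -0.65 to 0.00. The sets were described by these counts alone, and their difference from the family was not tested.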

How the data were processed

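RNA from whole rat hearts was hybridised to 8 single-colour Affymetrix arrays, 2 per group, each a pool of 3 hearts. The authors deposited 1 linear signal intensity per probe set. Per the submitters' processing notes these came from MAS5. The version and scaling target were not given in the sources used here. Precision is limited by the number of arrays.

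From these, log2 values of 31042 probe sets (31099 without 57 controls) were quantile normalized between arrays. The 18625 probe sets with a mean at or above the 40th percentile entered a linear model of the 4 group means in limma 3.58.1 (R 4.3.3), which let the prior variance follow brightness and left 4 residual degrees of freedom. Tests were two-sided, with Benjamini-Hochberg adjustment within each comparison at 0.05, and errors are moderated standard errors. The fitting was tested on simulated data. Gene names came from the platform annotation, and 45 of 45 members matched RefSeq by Entrez number with the same symbol. Probe sets with several symbols (7 here, among them those of Cycs, Atp5mc1, Atp5mc2, Cox7a2 and Uqcrb) were left out.

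Named genes were the catalytic and core subunits, the isoform pairs, members with an unadjusted p under 0.05, and the 2 members of smallest p in each direction of each comparison. The members and lists were chosen with earlier results of these data known, and the divisions of complexes after the values were seen. Alternatives were other scalings, 32 added before log2, no filter, no trend, a replicate block, each array left out, and averaging the probe sets of each gene. A further scaling, on the median of the tested members, was chosen after seeing the data.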

Additional observations from a re-analysis of the deposited data

How the results depend on the processing

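No subunit gene was called under any alternative run. The median over the subunit genes depended on the scaling. With no normalization it was -0.12 (ovariectomy minus sham), -0.22 (late estradiol minus ovariectomy), -0.22 (late minus early estradiol), -0.13 (early minus sham) and -0.35 (late minus sham). With arrays centred on their median it was 0.014 (ovariectomy minus sham), 0.0097 (early minus ovariectomy), 0.029 (late minus ovariectomy), 0.033 (early minus sham) and 0.035 (late minus sham). With cyclic loess it was 0.14, -0.13, 0.11, 0.25, 0.016 and 0.26, in the order ovariectomy minus sham, early minus ovariectomy, late minus ovariectomy, late minus early, early minus sham and late minus sham. The mean of all probe sets of a gene gave -0.022 for ovariectomy minus sham. The cause was not tested. With 1 array left out at a time, the medians ran from -0.048 to -0.015 (ovariectomy minus sham), -0.050 to 0.021 (early minus ovariectomy), -0.011 to 0.032 (late minus ovariectomy), 0.01 to 0.02 (late minus early), -0.10 to -0.035 (early minus sham) and -0.058 to -0.024 (late minus sham).

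Over all probe sets, 1 was called for late estradiol minus ovariectomy with 32 added before log2, with no filter and with the replicate block, and none was a subunit gene. With 1 array left out, 0 to 3 probe sets were called for ovariectomy minus sham, 0 to 65 for late minus ovariectomy, 0 to 100 for late minus early, 0 to 86 for late minus sham and 0 to 1 by the F test. The highest counts came without late estradiol replicate 2, and the 3 without ovariectomy replicate 1. The groups share replicate numbers, and replicate 2 minus replicate 1 differences correlated across probe sets, which are not independent, with r from 0.28 to 0.33 in the 6 pairs of groups. With the replicate as a block, 0 subunit genes were called, and intervals lay within 1.5-fold for 39, 39, 34, 34, 38 and 36 genes in the order above.

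Of 578 values of 34 named differences under 17 alternatives, 563 kept their sign. With cyclic loess, late minus sham was 0.17 for Sdhb, 0.0071 for Cyc1, 0.14 for Uqcrc1 and 0.023 for Uqcrfs1. With no normalization, Cox7a1 was -0.0072 in late minus early and -0.013 in late minus ovariectomy, and Cox8a -0.060 in ovariectomy minus sham. Atp5if1 in late minus sham was -0.44 with no normalization, -0.053 with arrays centred on their median and -0.067 with arrays centred on the subunit genes. With 1 array left out it ran from -0.0030 (without sham replicate 1) to 0.53. Cox6c in early minus sham ran from -0.054 (without sham replicate 1) to 0.20, and Sdha in early minus ovariectomy from -0.050 (without ovariectomy replicate 2) to 0.23. Atp5f1d in early minus ovariectomy ran from -0.085 (without ovariectomy replicate 1) to 0.33, and was -0.056 without early estradiol replicate 2.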
